A study of Rattus norvegicus with 107 samples.

Results

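Immature neuron genes are transcripts that young neurons carry while they migrate and extend their processes, and that decline as the cells mature. The set described here was 10 genes picked by symbol, namely Dcx, Sox11, Sox4, Tubb3, Tubb2b, Add2, Marcksl1, Dpysl3, Crmp1 and Gap43, of which 9 had a probe with that symbol in the platform annotation, 1 probe each. They were 9 of the 13337 genes with a named probe on the array, which held 22523 probes in all, 13793 of them with a single gene symbol. Dcx, which encodes the microtubule-binding protein doublecortin, had no probe of that symbol and is named only. The set was chosen with earlier results of these data known, so the shares of all probes given beside its counts are a description only.

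The samples came from untreated Sprague Dawley rat pups at 9 ages, the day before birth (embryonic day 21, E21) and postnatal days (PND) 1, 2, 3, 5, 7, 10, 15 and 22. Whole tissue RNA was measured from the right brain hemisphere in 54 samples, 6 per age, and from the colon in 53 samples, 6 per age apart from 5 at E21, where replicate 1 was left out by the submitters and was not analysed here. The E21 pups were taken from 1 dam by Caesarean section, so age and dam cannot be told apart at E21, and the litters of the older pups are not given per sample. The sources do not say whether a sample is 1 pup, so the errors below are the spread between samples. In whole tissue, fewer immature neurons and less RNA per neuron cannot be told apart.

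While a neuron is young, it keeps a plastic cytoskeleton, and many of these genes serve it directly, as building blocks of microtubules, as proteins that bind microtubules or actin, or as growth cone proteins at the tip of the growing axon. SoxC transcription factors act upstream of several of them in newly born neurons. In the colon the neurons are those of the enteric nervous system, which lies in the gut wall and derives from the neural crest.

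The upstream sequence of the members was read from the RefSeq promoter table (rat assembly GRCr8), which had an entry for 8 of the 10 members, all but Sox4 and Gap43. The 250 bases before the annotated start were searched on both strands for the CCAAT box and for GGGCGG, the core of the GC box. CCAAT was found for 5 of the 8 members and in 34.0% of 33469 promoters of that length, and GGGCGG for 5 of the 8 and in 30.5%, overlapping copies included. The 5 members with CCAAT are printed 5′ to 3′ on the gene's strand so that the position of the motif can be compared. Their brain signals declined with age, as did those of Dpysl3 and Crmp1, which had no CCAAT there. Capitals mark both motifs, also where they lie on the opposite strand, as ATTGG and as CCGCCC. The windows are chr6:49738795-49739044 on the minus strand for Sox11, and on the plus strand chr19:68365437-68365686 for Tubb3, chr17:30952836-30953085 for Tubb2b, chr4:120054628-120054877 for Add2 and chr5:147135577-147135826 for Marcksl1.
Sox11: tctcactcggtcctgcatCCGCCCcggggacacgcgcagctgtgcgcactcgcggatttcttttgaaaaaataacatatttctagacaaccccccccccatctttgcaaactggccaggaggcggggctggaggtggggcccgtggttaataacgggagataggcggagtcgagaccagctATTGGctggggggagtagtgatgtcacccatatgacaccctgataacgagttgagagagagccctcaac
Tubb3: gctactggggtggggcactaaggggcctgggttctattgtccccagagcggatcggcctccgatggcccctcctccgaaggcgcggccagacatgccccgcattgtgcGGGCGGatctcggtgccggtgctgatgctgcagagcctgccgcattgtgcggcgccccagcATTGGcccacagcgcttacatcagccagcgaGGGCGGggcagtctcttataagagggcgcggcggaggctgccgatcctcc
Tubb2b: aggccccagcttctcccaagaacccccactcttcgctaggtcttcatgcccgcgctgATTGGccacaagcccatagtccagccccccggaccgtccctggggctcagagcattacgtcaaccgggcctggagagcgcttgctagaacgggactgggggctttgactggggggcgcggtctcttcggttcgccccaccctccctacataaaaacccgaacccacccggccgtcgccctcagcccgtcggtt
Add2: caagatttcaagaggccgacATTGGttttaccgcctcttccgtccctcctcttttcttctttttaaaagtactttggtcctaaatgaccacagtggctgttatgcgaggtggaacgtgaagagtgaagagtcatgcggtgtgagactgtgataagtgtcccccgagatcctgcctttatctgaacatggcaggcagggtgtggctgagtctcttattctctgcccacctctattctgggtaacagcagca
Marcksl1: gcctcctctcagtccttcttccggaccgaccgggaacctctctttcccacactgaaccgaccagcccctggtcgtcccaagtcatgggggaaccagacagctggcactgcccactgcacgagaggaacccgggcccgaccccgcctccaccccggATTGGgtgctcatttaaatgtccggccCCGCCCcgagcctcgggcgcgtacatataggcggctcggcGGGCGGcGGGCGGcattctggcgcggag

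All 5 carried CCAAT on the opposite strand, read as ATTGG in the printed sequences. Its first printed base lay 69 bases before the start in Sox11, 81 in Tubb3, 95 in Marcksl1, 193 in Tubb2b and 230 in Add2. No promoter activity was measured in these samples, and a match of letters is a description of the sequence alone.

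Median raw signal ranged from 42.9 to 132 over the brain arrays and from 43.6 to 123 over the colon arrays. Signals were therefore brought to 1 common distribution by quantile normalization and are given below as normalized signal, a linear intensity without unit that cannot be compared between probes. After normalization, arrays of the same age and tissue correlated at 0.969 to 0.995 over all probes on the log2 scale. Values between about 66.3 and 76.9 in brain and 65.6 and 72.9 in colon were the lowest at which probes passed detection against the array's negative controls.

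The array of colon E21 replicate 4 stood apart and had a summed signal of 10481 for 15 mature neuron markers, against 1695 to 1792 in the other 4 E21 samples, and 4688 against 1067 to 1403 for 8 astrocyte markers. Its oligodendrocyte marker sum was 2072 against 590 to 656, and its enteric neuron marker sum was 7777 against 3190 to 3554. Mobp, a myelin gene, had a signal of 261 there and was detected on 0 of the 52 other colon arrays, whereas Prph (peripherin, a neurofilament protein of peripheral neurons) was lower there, at 820 against 1027 to 1239 in the other E21 samples. Uchl1, another enteric neuron marker, was higher there, at 430 against 161 to 222. Gfap (458) and Mbp (210) were also high there, but each was detected on 22 of the 52 other colon arrays. Mobp and Prph were singled out after their values were seen. For Tubb3, Tubb2b, Dpysl3, Crmp1, Add2 and Gap43 the colon comparison of PND 22 with E21 is given with this array and without it. Other colon values that involve E21 include it unless stated.

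In the brain, all 9 measured members declined between E21 and PND 22, by 19.8-fold for Tubb2b at one end and 1.53-fold for Gap43 at the other. Against E21, the SoxC factors Sox11 and Sox4 were called lower from PND 5, and Gap43, Crmp1, Dpysl3 and Marcksl1 only from PND 15. Part of this order rests on the reference, since against PND 1 Marcksl1 was lower from PND 5 and Crmp1 from PND 10. All 9 differed among the 9 ages (limma F test, adjusted p from 3.25e-33 for Tubb3 to 1.34e-19 for Gap43), as did 35.4% of all probes. At PND 22 all 9 were called lower than at E21 (adjusted p under 0.01, here and below), as were 14% of all probes, with a median change of -2.50 on the log2 scale against -0.01 over all probes.

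**Figure D1:**
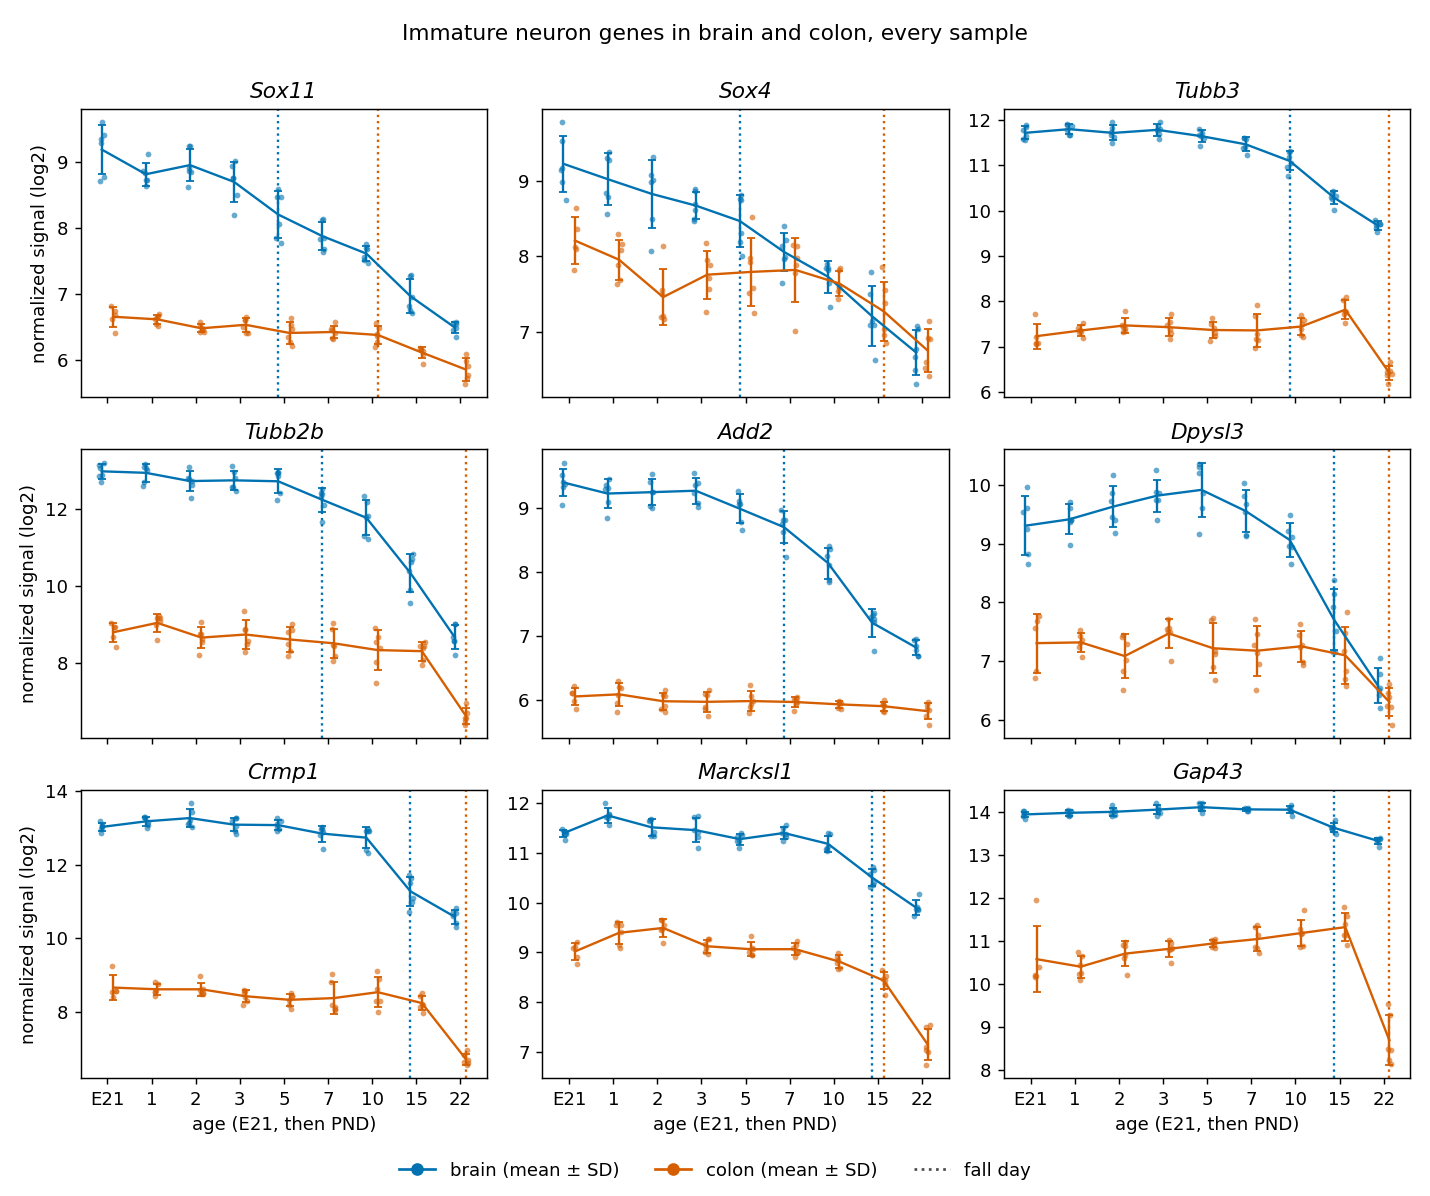
Log2 normalized signal of the 9 measured immature neuron genes in brain (blue) and colon (orange) at E21 and each PND, the ages being evenly spaced. Points are single samples, lines join age means with bars of 1 SD, and dotted lines mark the fall day, the first age from which every age was called lower than E21. In brain each gene ends below its E21 level, by 19.8-fold for Tubb2b and 1.53-fold for Gap43, and in colon 6 genes, all but Sox11, Sox4 and Add2, made 68.8% or more of their log2 change from E21 in the step from PND 15 to PND 22.

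Sox11 is a SoxC transcription factor of newly born neurons that switches on neuron genes. Its signal in brain ran from 416 to 775 (median 637) at E21, from 218 to 385 (median 310) at PND 5 and from 81.4 to 96.0 (median 91.6) at PND 22. All PND 5 samples lay below all E21 samples, and all PND 22 samples below all PND 15 samples. The change from E21 to PND 22 was -2.68 ± 0.14 on the log2 scale (SE; 6 samples per age), a fall of 6.43-fold (limma adjusted p = 1.33e-24). Sox4, the related SoxC factor, is also used outside the nervous system. It ran from 430 to 882 (median 572) at E21, from 201 to 338 (median 268) at PND 7 and from 79.1 to 135 (median 105) at PND 22. The PND 7 samples all lay below the E21 samples, while neighbouring ages overlapped at every step, so that Sox4 declined gradually, by -2.50 ± 0.18 over the whole course (adjusted p = 1.68e-18). The profiles of Sox11 and Sox4 were the closest pair among the members, at a root mean square distance of 0.12 on the log2 scale over the 9 ages.

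Tubb3 and Tubb2b are beta tubulins, subunits of the microtubules, Tubb3 being the form typical of neurons. Tubb3 signal ran from 3032 to 3795 (median 3371) at E21, from 1747 to 2553 (median 2224) at PND 10 and from 738 to 884 (median 830) at PND 22. Its samples overlapped the E21 range up to PND 7 and lay below it from PND 10. The whole change was -2.05 ± 0.08 (adjusted p = 8.53e-29). Tubb2b had the deepest decline of the 9, from 6690 to 9486 (median 8107) at E21, through 754 to 1815 (median 1463) at PND 15, to 293 to 518 (median 397) at PND 22. No PND 15 sample reached the lowest PND 10 sample, at 2378, and no PND 22 sample reached the lowest PND 15 sample. The change was -4.31 ± 0.17 (adjusted p = 8.33e-29). Beta tubulins are closely alike in sequence, and how far each probe also binds the others was not tested.

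Dpysl3 and Crmp1 belong to the collapsin response mediator proteins (CRMPs), which bind tubulin and relay repulsive guidance signals in growth cones. Dpysl3 first tended upwards, from 401 to 1001 (median 679) at E21 to 577 to 1307 (median 1056) at PND 5, and these samples overlapped. It then went down to 143 to 335 (median 212) at PND 15 and 73.9 to 132 (median 92.2) at PND 22, each below all samples of the age before. From its highest mean, at PND 5, to PND 22 the fold was 10.1, and against E21 the change was -2.72 ± 0.20 (adjusted p = 1.51e-17). Crmp1 was not called lower than E21 up to PND 10, with 7397 to 9276 (median 8385) at E21 and 5087 to 7969 (median 7661) at PND 10. Against PND 1, however, it was lower at PND 10 (-0.44 ± 0.12, adjusted p = 0.00587). It stood at 1675 to 3372 (median 2557) at PND 15, below all PND 10 samples, and at 1281 to 1805 (median 1595) at PND 22. Its step from PND 10 to PND 15 was -1.45 ± 0.12 (adjusted p = 1.90e-13) of a whole change of -2.43 ± 0.12 (adjusted p = 2.29e-24).

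Add2 encodes beta adducin, which caps actin filaments and ties them to the spectrin skeleton under the membrane. It ran from 529 to 835 (median 670) at E21, from 229 to 340 (median 288) at PND 10 and from 103 to 123 (median 113) at PND 22. It was below the E21 range from PND 7, and the PND 15 samples, 109 to 164, were all below those of PND 10. The change was -2.58 ± 0.12 (adjusted p = 1.43e-26).

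Marcksl1 and Gap43 are membrane-bound growth cone proteins that act on the actin cortex, Gap43 being a major protein of growing axons. Marcksl1 alone was called higher at birth: it ran from 2451 to 2854 (median 2707) at E21 and from 3011 to 4093 (median 3425) at PND 1, without overlap (0.36 ± 0.09, adjusted p = 0.00505), where 1.47% of all probes were called higher. That call was lost without E21 replicate 1, 2 or 3 or PND 1 replicate 1, 2 or 4, with adjusted p up to 0.0259. Marcksl1 then ran from 1266 to 1673 (median 1439) at PND 15 and from 847 to 1154 (median 936) at PND 22, a change from E21 of -1.50 ± 0.09 (adjusted p = 9.82e-22).

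Gap43 moved least. Its signal ran from 14585 to 16487 (median 15779) at E21, from 15987 to 18864 (median 17666) at PND 5 and from 9375 to 10755 (median 10452) at PND 22. Up to PND 10 each age overlapped E21, and both later ages lay below it (-0.61 ± 0.06 from E21 to PND 22, adjusted p = 2.99e-14). The Gap43 probe was the 15th brightest of the 22523 in brain, with a highest probe mean of 19154 on those arrays, so little range was left above it.

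The age at which each member declined was taken as its fall day, the first age from which it and every later age were called lower than E21. It was PND 5 for Sox11 and Sox4, PND 7 for Add2 and Tubb2b, PND 10 for Tubb3, and PND 15 for Marcksl1, Dpysl3, Crmp1 and Gap43. By limma, 0 of 9 members were called lower than E21 at PND 1, 2 or 3 (1, 1 and 2 at an unadjusted p under 0.05, and 0, 0 and 2 by the unmoderated test at p under 0.01), where 2.12%, 0.746% and 1.32% of all probes were. The count was 2 at PND 5 (3.29% of probes), 4 at PND 7 (7.12%), 5 at PND 10 (8.07%) and 9 at PND 15 (12.9%). Such a day depends on the spread of each probe as well as on its change. It also depends on how many probes change at an age, as p-values were adjusted within each contrast. The day moved with single samples for 3 members. Sox11 moved to PND 3 without E21 replicate 2 or 3, and Sox4 to PND 7 without E21 replicate 4. Add2 moved to PND 5 without E21 replicate 3, PND 5 replicate 1, PND 7 replicate 6 or PND 15 replicate 6. With PND 1 as the reference, the day was PND 5 for Marcksl1, PND 7 for Sox4 and Tubb3, and PND 10 for Crmp1.

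A measure without a threshold, the age at which the mean log2 signal passed the midpoint between its highest value and its lowest later value, gave the same order at the start. That midpoint was passed at 7.40 days by Sox11 (6.92 to 7.88 on leaving out each sample in turn) and at 7.76 days by Sox4 (7.18 to 8.27), ranges that overlap. Add2 followed at 10.2 days (9.88 to 10.5), its range lying apart from those of the SoxC factors and of the rest. These ranges show the effect of single samples and are not confidence intervals, so the order of the members was not tested. Tubb3 (12.2), Marcksl1 (12.6), Crmp1 (12.8), Dpysl3 (13.01), Tubb2b (13.3) and Gap43 (13.9) passed it within 2 days of each other, and the ranges of neighbours in this order overlap except those of Tubb3 (12.1 to 12.5) and Marcksl1 (12.5 to 12.8), which just miss. By PND 10, Sox11 had made 58.5% and Sox4 59.8% of their log2 change from E21 to PND 22, Add2 48.8%, Tubb3 30.3% and Tubb2b 28.0%. Marcksl1, Crmp1 and Dpysl3 had made 14.2%, 11.9% and 8.88%, and Gap43 was not called different from E21 at that age (0.11, adjusted p = 0.168).

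Between neighbouring ages in brain, the members were called lower 16 times, and 14 of these were the steps to PND 15 and PND 22. By limma, 0 of 9 were called lower from E21 to PND 1 and at the next 4 steps, up to PND 7 (1, 1, 0, 3 and 5 at an unadjusted p under 0.05, and 0, 0, 0, 1 and 0 by the unmoderated test), where 2.12%, 0.195%, 0.00888%, 0.00888% and 0.653% of all probes were. From PND 7 to PND 10 Add2 (-0.56, adjusted p = 0.000978) and Tubb3 (-0.37, adjusted p = 0.00267) were called lower, against 1.51% of probes, and the Tubb3 call was lost without PND 7 replicate 1 or 2 or PND 10 replicate 2 or 5 (adjusted p up to 0.0238). From PND 10 to PND 15 all but Sox4 (-0.53, adjusted p = 0.0378) were called lower, 8 of 9 against 3.84% of probes. From PND 15 to PND 22 it was 6 of 9 against 1.33%, the others being Sox11 (-0.47, adjusted p = 0.0232), Sox4 (-0.48, adjusted p = 0.107) and Add2 (-0.39, adjusted p = 0.0334). Sox4 was called at the first of these steps without PND 15 replicate 4 (adjusted p = 0.00982), and Add2 at the second without PND 15 replicate 6 (adjusted p = 0.00619).

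**Figure D2:**
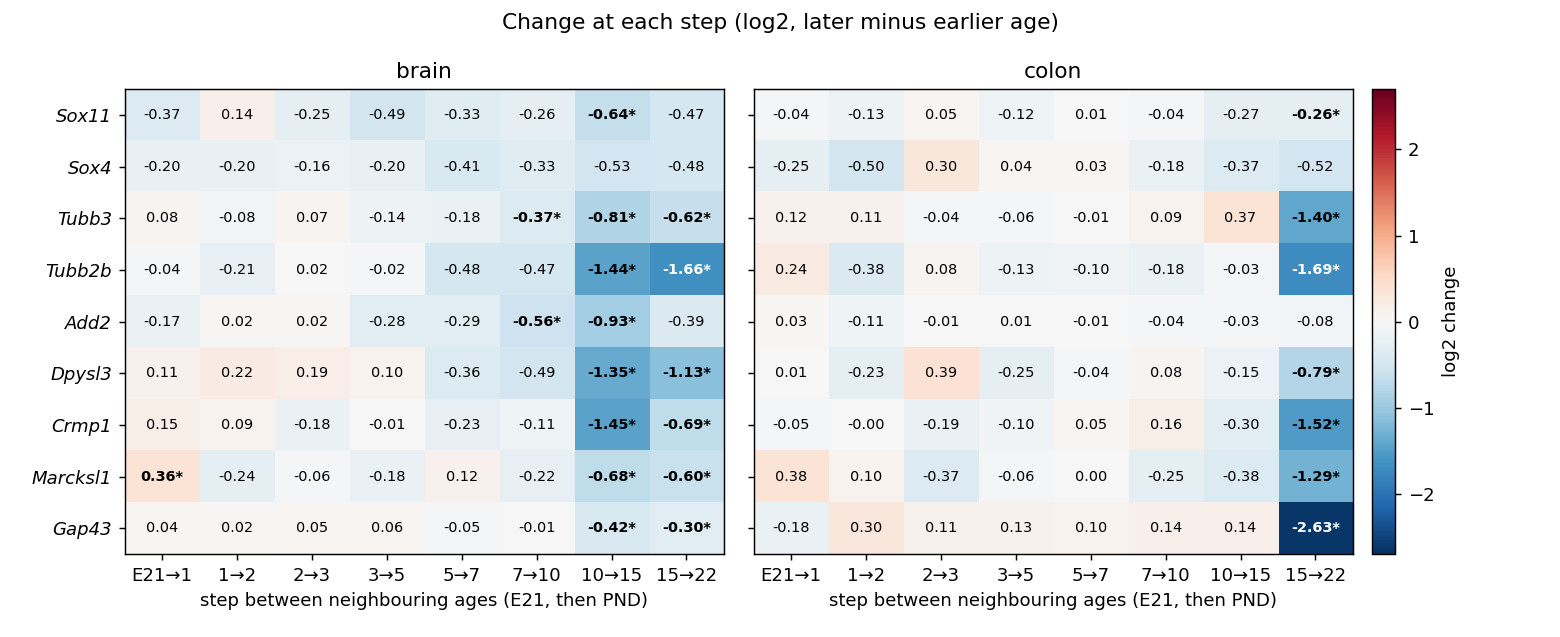
Change in log2 normalized signal of each immature neuron gene between neighbouring ages in brain and colon, printed in each cell and coloured, with an asterisk where limma called the change at an adjusted p under 0.01. In brain the calls lie mainly at the steps to PND 15 (8 of 9 genes, 3.84% of all probes lower) and PND 22 (6 of 9, 1.33%). In colon they lie at the step to PND 22 (7 of 9, 9.27%).

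Related genes of the same families did not all decline, against 14% of all probes called lower and 12.1% called higher from E21 to PND 22. Among the other beta tubulins in brain, Tubb5 (-1.80), Tubb6 (-1.09) and Tubb2a (-0.20) were called lower at PND 22 than at E21 and Tubb4b higher (0.72). Of 12 measured microtubule-binding genes, 5 were lower (Map1b -1.41, Stmn1 -1.20, Stmn2 -1.10, Dclk2 -0.84 and Stmn4 -0.67) and 5 higher (Map6 1.05, Dclk1 0.99, Map1a 0.95, Dclk3 0.39 and Stmn3 0.28), with Map2 (-0.15) and Map4 (-0.27) not called. The neuronal CRMP Dpysl5 was lower (-1.30), while Dpysl2 (-0.16) and Dpysl4 (0.09) were not called. Of the other adducins Add3 was higher (1.24) and Add1 was not called (-0.04), and the growth cone protein Basp1 was lower (-1.02).

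A list of 24 other measured immature neuron genes had 14 lower and 2 higher, with a median of -0.69. Igfbpl1 (-4.13), the cell surface protein gene Cd24 (-2.62) and Nnat (-2.52) were lower and the transcription factor gene Neurod1 was higher (2.16). Over the same interval 14 of 15 mature neuron markers were called higher (median 1.62; Pvalb 3.00, Nrgn 2.91), where 12.1% of all probes were. Higher signal was also called for 7 of 8 oligodendrocyte markers (median 3.70; Mobp 5.70, Mbp 5.61) and 8 of 8 astrocyte markers (median 1.93; S100b 3.07, Gfap 3.07), while 8 of 11 progenitor and dividing cell markers (median -0.72; Cdk1 -2.32, Nes -1.89) and 6 of 8 fibroblast and mesenchyme markers (median -1.09) were lower, where 14% of all probes were. At the step to PND 15, where 8 members were lower, 10 of 15 mature neuron markers, 6 of 8 oligodendrocyte markers and 3 of 8 astrocyte markers were called higher against 3.94% of probes. How far this changing make-up of the tissue enters the members' signals was not tested.

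The brain profiles nearest to the median profile of the members, among 7716 genes detected in all samples of at least 1 age, were those of Myc (root mean square distance 0.06 on the log2 scale over the 9 ages), Efnb3 (0.11), Gipr (0.13), Plppr1 (0.15), Fnbp1l, Plppr3 and Hes6 (0.16 each) and Dynlt1 (0.16). Their changes from E21 to PND 22 lay between -2.26 for Dynlt1 and -1.80 for Plppr1. Efnb3 encodes an ephrin, a membrane-bound axon guidance ligand, and Hes6 a transcription factor of differentiating neurons. All points come from the same 54 arrays, and likeness of profile is a description only.

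In the colon 7 of 9 members were called lower between PND 15 and PND 22, where 9.27% of all probes were. Sox11, Sox4 and Marcksl1 were already lower than E21 at PND 15, where 10.5% of all probes were. Of the 9, 8 were lower at PND 22 than at E21, by 4.53-fold for Tubb2b to 1.76-fold for Tubb3 among the 7 detected on most arrays of both ages. The decline of Sox11 has only a bound, and Add2 was near the detection limit throughout. Gap43 and Tubb3 reached their highest colon means at PND 15, just before they went down. By limma 8 of 9 changed over the 9 ages (36.7% of all probes did), and 8 of 9 were called lower at PND 22 than at E21 (13.8% of probes), with a median of -1.46 against -0.01 over all probes.

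Sox11 in colon was low, with E21 signals of 99.1, 112, 103, 107.3 and 85.2, and 49.9 to 68.6 (median 57.7) at PND 22. It was detected on 5 of 5 E21 arrays and on 0 of 6 at PND 22, so that the change of -0.80 ± 0.07 (adjusted p = 5.70e-13) has only a bound, and the E21 level was at least 1.46-fold higher. Sox4 signals at E21 were 330, 401, 274, 279 and 226, and at PND 22 they ran from 85.5 to 141 (median 108). The groups did not overlap (-1.46 ± 0.20, adjusted p = 1.45e-08). The cell type behind the Sox4 signal cannot be read from whole tissue.

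Tubb3 signals at E21 were 135, 135, 210, 149 and 134, the 210 being that of replicate 4. They ran from 183 to 272 (median 220) at PND 15 and from 72.2 to 102 (median 85.6) at PND 22. The PND 22 samples lay below all others of these ages. Against E21, Tubb3 was called higher at PND 15 (0.58 with replicate 4 and 0.71 without it, adjusted p = 0.000213 and 1.12e-05), where 8.83% of probes were called higher, and lower at PND 22 (-0.81 with and -0.69 without). Tubb2b signals at E21 were 409, 526, 342, 484 and 485, and it ran from 245 to 375 (median 341) at PND 15 and from 83.9 to 124 (median 95.1) at PND 22, again without overlap between the last 2 ages. Its change from E21 was -2.18 ± 0.19 with replicate 4 and -2.27 ± 0.20 without it (adjusted p = 3.48e-14 and 6.21e-14).

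Dpysl3 signals at E21 were spread, at 189, 217, 113, 205 and 104, and ran from 94.9 to 228 (median 129) at PND 15 and from 60.4 to 97.3 (median 79.4) at PND 22. All PND 22 samples lay below E21, but they overlapped those of PND 15. The change from E21 was -1.003 ± 0.207 with replicate 4 and -1.12 ± 0.22 without it (adjusted p = 7.92e-05 and 2.84e-05). Crmp1 signals at E21 were 340, 372, 612, 380 and 379, replicate 4 again being the highest. They ran from 253 to 367 (median 296) at PND 15 and from 94.6 to 126 (median 102) at PND 22, with no overlap. From E21 to PND 22 Crmp1 changed by -1.94 with replicate 4 and by -1.80 without it.

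Add2 was detected on 9 of 53 colon arrays. Its signal ran from 57.8 to 74.0 at E21 and from 48.8 to 62.3 at PND 22, and it did not pass the F test (adjusted p = 0.105) or the comparison of PND 22 with E21 (-0.23 ± 0.08, adjusted p = 0.0185; adjusted p = 0.0779 without E21 replicate 4). Against E21 it was called on leaving out E21 replicate 5, by the unmoderated test and at a threshold of 0.05, and against PND 1 it was called lower at PND 22 (-0.26, adjusted p = 0.00384).

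Marcksl1 signals at E21 were 437, 551, 547, 477 and 592. They ran from 284 to 403 (median 351) at PND 15 and from 106 to 186 (median 134) at PND 22, and the PND 15 samples lay below all PND 10 samples and the PND 22 samples below all PND 15 samples. Its change of -1.87 ± 0.11 had the smallest adjusted p of the 9 in colon, 2.17e-20. It was called higher than E21 at PND 2 (0.47 ± 0.11, adjusted p = 0.00388, where 1.14% of probes were called higher), a call that was lost without E21 replicate 2 or 5 or PND 2 replicate 5 or 6.

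Gap43 signals at E21 were 1179, 1148, 3934, 1338 and 1161, replicate 4 being far above the others, which lay close together. At later ages they ran from 1815 to 2095 (median 1970) at PND 5, from 1916 to 3509 (median 2475) at PND 15 and from 281 to 740 (median 355) at PND 22. All PND 22 samples lay below all samples of the other ages shown. With replicate 4 in the fit Gap43 was called higher than E21 at PND 15 alone (0.74, adjusted p = 0.00671), and without it at PND 5 (0.71), PND 7 (0.81), PND 10 (0.95) and PND 15 (1.09, adjusted p = 6.04e-06). The decline from E21 to PND 22 was -1.89 with it and -1.55 without it. With replicate 4 kept, the PND 15 call was lost without any one of E21 replicates 2, 3, 5 and 6 or PND 15 replicates 1, 4 and 6 (adjusted p up to 0.0338).

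Colon fall days were PND 10 for Sox11, PND 15 for Sox4 and Marcksl1, and PND 22 for Tubb3, Tubb2b, Dpysl3, Crmp1 and Gap43. With PND 1 as the reference, the day was PND 10 for Tubb2b and Marcksl1 and PND 15 for Sox11. At PND 10 these changes from PND 1 were -0.71 for Tubb2b (adjusted p = 0.00288) and -0.58 for Marcksl1 (adjusted p = 2.71e-05). The Sox11 day is uncertain, as it moved to PND 15 without E21 replicate 3, 4 or 5 or PND 10 replicate 1 or 5 (adjusted p = 0.0112 at PND 10 without E21 replicate 4), and to PND 5 without E21 replicate 6. By limma 0 of 9 members were called lower than E21 at PND 1, 2, 3, 5 and 7 (0, 2, 1, 3 and 1 at an unadjusted p under 0.05, and 0, 1, 0, 1 and 1 by the unmoderated test), where 2%, 1.08%, 1.95%, 2.81% and 6.52% of all probes were. The count was 1 at PND 10 (7.41%) and 3 at PND 15 (10.5%). Sox4 came close to a call at PND 2 (-0.75 ± 0.20, adjusted p = 0.0134), but less so at PND 3 (-0.45, adjusted p = 0.156). At PND 2 it was called without E21 replicate 6, PND 2 replicate 4, PND 5 replicate 6 or PND 7 replicate 6 (adjusted p from 0.00333 to 0.0087).

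Between neighbouring ages in colon, limma called 0 of 9 lower at each of the 7 steps up to PND 15 (0, 2, 1, 0, 0, 1 and 3 at an unadjusted p under 0.05, and 0, 0, 1, 0, 0, 0 and 2 by the unmoderated test), where 2%, 0.107%, 0%, 0.0133%, 0.448%, 0.888% and 0.644% of all probes were. From PND 15 to PND 22 it called 7 of 9 lower against 9.27% of probes. The changes were -2.63 ± 0.21 for Gap43, -1.69 ± 0.18 for Tubb2b, -1.52 ± 0.14 for Crmp1, -1.40 ± 0.12 for Tubb3, -1.29 ± 0.10 for Marcksl1 and -0.79 ± 0.20 for Dpysl3. Sox11 was the 7th, but as no PND 22 array detected it and the bound there (6.11 on the log2 scale) lay at its PND 15 mean (6.12), no size can be given for that step. Its call was lost without PND 15 replicate 1, 2 or 4 or PND 22 replicate 3, 4 or 5 (adjusted p up to 0.0257), and the Dpysl3 call without PND 15 replicate 6 (adjusted p = 0.0108). Sox4 (-0.52, adjusted p = 0.0329) and Add2 (-0.08, adjusted p = 0.535) were not called.

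Markers of several cell types moved at the same step. Of 14 enteric neuron markers 12 were called lower (median -1.46), among them Prph (-2.82), Nefl (-2.78), Stmn2 (-2.56) and Uchl1 (-1.75), and their summed signal went from 6119 to 10085 over the PND 15 samples to 1400 to 3469 over the PND 22 samples. All 8 fibroblast markers were lower too (median -1.45), with sums of 32318 to 42203 before and 10625 to 31500 after, as were 5 of 6 smooth muscle markers (median -1.05), with sums of 34932 to 39140 and 14507 to 33741. Of 15 mature neuron markers, a list that shares Nefl, Nefm, Snap25 and Syt1 with the enteric one, 6 were lower and 0 higher (median -0.24). Of all probes, 9.27% were called lower at this step. Of 4 enteric glia markers 2 were lower and 1 higher, and 0 of 4 endothelial and 0 of 5 immune markers were called by limma. Epithelial markers were called higher for 4 of 7, against 9.13% of probes, with sums of 43948 to 50645 before and 59606 to 66852 after. PND 22 replicates 1 and 2 had the highest Gap43 signals (623 and 740, against 281 to 356 in the other 4) and also the highest enteric neuron, smooth muscle and fibroblast sums of that age. The part of this shift in the members' decline was not tested.

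**Figure D3:**
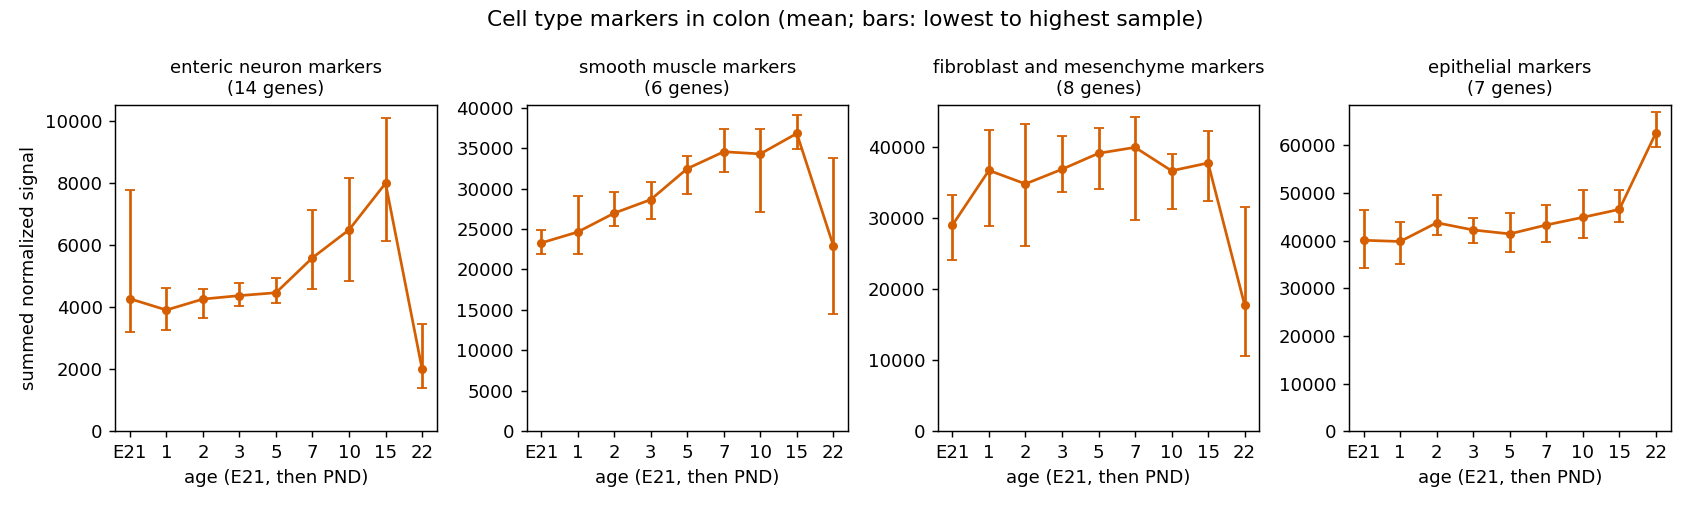
Summed normalized signal of 4 cell type marker lists in colon at each age; points are means and bars run from the lowest to the highest sample, the E21 bars including replicate 4. The enteric neuron sums go from 6119 to 10085 at PND 15 down to 1400 to 3469 at PND 22, the fibroblast and smooth muscle sums are also lower at PND 22, and the epithelial sums are higher.

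Among relatives of the members in colon, Tubb5 (-1.35), Tubb6 (-0.88) and Tubb4b (-0.47) were called lower at PND 22 than at E21, as was Basp1 (-2.22), and of the microtubule-binding genes Stmn2 (-1.71), Stmn3 (-1.55), Stmn1 (-1.43), Map1b (-1.30), Dclk2 (-1.21), Map4 (-0.45) and Map1a (-0.32). Add3 was lower in colon (-0.92), whereas it was higher in brain. Of the 24 other immature neuron genes 8 were lower and 1 higher (median -0.23), against 13.8% and 11.6% of all probes, with Igfbpl1 (-2.02), Tuba1a (-1.61), Nrep (-1.20) and Ina (-1.15) showing the largest changes. Over the same interval 6 of 7 epithelial markers (Krt20 3.34) and 5 of 5 immune markers (Cd3d 1.00) were called higher. Lower signal was called for 6 of 8 fibroblast and mesenchyme markers (median -0.75) and 7 of 14 enteric neuron markers (median -0.51). It was also called for 7 of 11 progenitor and dividing cell markers (median -0.63) and 5 of 15 mature neuron markers (median -0.43, with 0 higher). Their part in the members' decline was not tested. All these colon changes from E21 were fitted with replicate 4, and its part in them was not tested. At E21 the SD was 492 around a mean of 625 for Stmn2, and 3572 around 9742 for Tuba1a.

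The tissues differed in how far most members declined. The change from E21 to PND 22 in colon minus that in brain was called for 7 of 9 members, against 22.1% of all probes. The decline was smaller in colon for 6 of them, with differences of 2.35 ± 0.15 for Add2, 2.13 ± 0.26 for Tubb2b, 1.89 ± 0.16 for Sox11, 1.72 ± 0.30 for Dpysl3, 1.23 ± 0.15 for Tubb3 and 1.04 ± 0.27 for Sox4 (limma adjusted p from 9.64e-27 for Add2 to 0.0012 for Sox4). Add2 and Sox11 were near or below the detection limit in colon at PND 22, which bounds the decline that could be measured there, so that their differences may be overstated. Dpysl3 (60.4 to 97.3) and Tubb3 (72.2 to 102) also lay close to that limit there, each detected on 5 of 6 arrays. Their differences may be overstated too, though brain Dpysl3 at PND 22 (73.9 to 132) also reached the limit in its tissue. Colon Tubb2b (83.9 to 124) and Sox4 (85.5 to 141) at PND 22 were detected on all 6 arrays but overlapped the Tubb3 range. Background was not subtracted in these values, so their differences may be affected as well. Gap43 had a larger measured decline in colon than in brain (-1.27 ± 0.22, adjusted p = 1.08e-06; -0.93 ± 0.19 and 2.36e-05 without colon E21 replicate 4), but its brain signal lay near the top of the array's range, where a decline may be understated. Without that array the differences were 1.35 for Tubb3 and 2.04 for Tubb2b, and all 7 were still called. Marcksl1 (-0.37, adjusted p = 0.0345) and Crmp1 (0.49, adjusted p = 0.0578) were not called. Crmp1 was called without colon E21 replicate 4 (0.64, adjusted p = 0.00926) but turned sign with normexp background correction (-0.034, adjusted p = 0.946). Marcksl1 was called without colon PND 22 replicate 1 (-0.45, adjusted p = 0.00749) or 2 (-0.44, adjusted p = 0.0095) and with normexp correction.

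**Figure D4:**
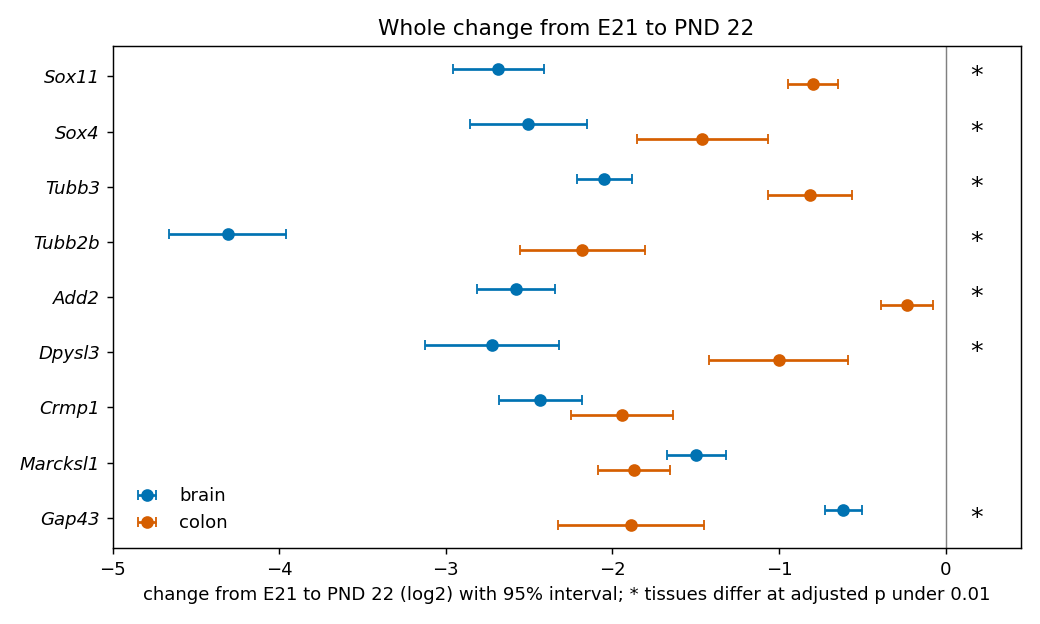
Change in log2 normalized signal from E21 to PND 22 of each immature neuron gene in brain and in colon, with bars for the 95% interval of the limma fit and an asterisk where the tissues differed at an adjusted p under 0.01. Gap43 declines more in colon (-1.89) than in brain (-0.61), where its signal is near the top of the array's range. Tubb2b, Sox4, Dpysl3 and Tubb3 decline more in brain, as do Add2 and Sox11, whose colon declines are bounded by the detection limit. Dpysl3 and Tubb3 also lie close to that limit in colon at PND 22, and Dpysl3 does so in brain.

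On the level of single probes, ratios of brain to colon were taken from the difference of the mean log2 signals. At E21 they lay between 2.03 (Sox4) and 22.5 (Tubb3). Sox4 differed least and ended level, with a ratio of 0.98 at PND 22, when the samples of both tissues overlapped. For Gap43 the ratio at PND 22 was 24.9. These ratios describe the tissues and were not tested. In single comparisons of E21 with PND 22, the exact permutation test, two-sided, gave its smallest possible p, 0.00216, for all 9 members in brain and 8 in colon, and 0.0195 for colon Add2.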

How the data were processed

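Total RNA of each sample was amplified to biotin-labelled cRNA and hybridized to 1 Illumina RatRef-12 BeadChip array per sample. The authors extracted signals in BeadStudio and deposited a bead signal intensity per probe without normalization between arrays, with a detection p-value against the negative controls of the same array. A second deposited table holds intensities that the authors quantile normalized within each tissue in GeneSpring GX, and it served as an alternative only. Here the raw intensities of all 107 arrays were quantile normalized together and taken to log2 with a floor of 1, using limma 3.58.1 under R 4.3.3, the tables being read by the data.table package (version 1.17.8). Figures were drawn with Python 3.11.15, matplotlib 3.10.9 and numpy 2.4.6.

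Each tissue was fitted apart with limma, with a mean for each age and the F test over the 9 ages, then contrasts of each age with E21 and with the age before. Another fit over both tissues tested the difference of their changes. P-values were adjusted by Benjamini-Hochberg over the 22523 probes of a contrast, and members were called at an adjusted p under 0.01. The fits were tested on simulated data. Detection means a detection p under 0.05, and arrays limit the precision through their number, 6 per group and 5 for colon at E21. Midpoint ages were interpolated between age means, with E21 at day -1. For a probe not detected on any array of a group, the bound took, per array, the higher of the lowest detected signal and the probe's own. Single comparisons used a two-sided exact permutation test of log2 signal.

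Probes were named from the platform annotation: 13793 had 1 symbol and 8730 had none, and 13752 of the symbols were matched to RefSeq through the gene number. Every member was named, by its brightest named probe. Of the other lists, all family members and up to 4 called genes with the largest change from E21 to PND 22 were named, with 8 genes nearest in brain profile. The 5 genes nearest to Dcx, also planned, could not be given. The members and gene lists were chosen with earlier results of these data known. The enteric neuron markers given for the step from PND 15 to PND 22 are those the rule gave for the whole change.

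The alternatives were normexp background correction (offset 16), quantile normalization of each tissue apart, a common 75th percentile in its place, the deposited normalized intensities, a floor of 16, detected probes only, trend and robust moderation, the unmoderated test at an unadjusted p under 0.01, a threshold of 0.05, a minimum of 1.5-fold, PND 1 as reference, a replicate block and leaving out each sample. The mean over all probes of a gene gave no further value, since each member had 1 probe. In all, 0 columns of per-sample values were left without a sample.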

Additional observations from a re-analysis of the deposited data

Results flagged for a closer look

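In 10 of 162 groups (1 member, tissue and age each; 6.17%) the highest or lowest sample stood off from the rest by Dixon's criterion, which chance meets in about 1 in 20 groups. These came from 8 arrays. Colon E21 replicate 4 gave 3 of them as the highest sample, with a normalized signal of 3934 for Gap43 (next 1338), 612 for Crmp1 (next 380) and 210 for Tubb3 (next 149). The other high samples were Tubb3 in colon PND 2 replicate 2 (222, next 179) and Crmp1 in colon PND 2 replicate 5 (501, next 399). Low samples were Sox4 in colon PND 7 replicate 6 (128, next 219), Dpysl3 in colon PND 3 replicate 6 (128, next 180), Sox11 in colon PND 15 replicate 5 (61.8, next 68.6), Add2 in brain PND 15 replicate 6 (109, next 148) and Crmp1 in brain PND 7 replicate 5 (5479, next 7192).

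The change from E21 to PND 22 differed between colon and brain, by limma's test of the difference, for 7 members. The colon change minus the brain change on the log2 scale was 2.35 for Add2, 2.13 for Tubb2b, 1.89 for Sox11, 1.72 for Dpysl3, 1.23 for Tubb3, 1.04 for Sox4 and -1.27 for Gap43.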

How the results depend on the processing

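The counts of members that changed over the ages, were lower at PND 22 or differed between tissues moved by less than 1.5 times under the alternatives run, whereas counts at single ages and steps moved more with the unmoderated test (2 against 0 lower than E21 in brain at PND 3, and in colon 2 against 1 at PND 10 and 2 against 0 at the step to PND 15). Across the alternatives the calls at single steps ranged from 12 to 20 in brain (16 as reported) and from 6 to 10 in colon (7 as reported). On leaving out each sample in turn, 9 to 9 members changed in brain and 9 to 9 were lower at PND 22, with 15 to 17 calls at single steps. In colon 8 to 8 changed, 8 to 9 were lower at PND 22 and 6 to 8 calls fell at single steps, and 7 to 8 members differed between tissues. With the replicate block, entered as the replicate number in the fit of each tissue, brain gave 9, 9 and 18, and colon 8, 8 and 7. In the fit of both tissues the block was the same-numbered samples of an age (consensus correlation 0.11), and 7 members differed between tissues. Same-numbered brain and colon samples deviated together in 47 of 53 pairs (r over 0.1, median 0.30), and 41 of 53 brain samples correlated best with their own number. The labels do not tie the numbers to a pup, so they were not taken as pairs. The main test of the tissue difference treated these samples as independent.

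The changes from E21 to PND 22 kept their direction and side of the threshold in 195 of 197 refits with another setting, colon Add2 being called in the other 2. Of the tissue differences, Marcksl1 was called in 3 refits and Crmp1 turned sign with normexp background correction (-0.034, adjusted p = 0.946; the cause was not tested). Fall days moved in 30 of 204 such refits. In brain, Add2 moved to PND 5 in 5 refits, Sox11 to PND 3 in 3, Sox4 to PND 3 or PND 7 in 3, Tubb3 to PND 7 in 3, Tubb2b to PND 10 in 1, Gap43 to PND 22 in 1, and, with PND 1 as reference, Crmp1 to PND 10 and Marcksl1 to PND 5. In colon, the day of Sox11 lay between PND 5 and PND 22, and those of Sox4, Marcksl1, Tubb2b and Crmp1 also moved, to between PND 10 and PND 22. The midpoint age of Sox4 in colon, 1.96 days, ranged from 1.75 to 12.9 and was not used. Scaling to the 75th percentile moved the median of all probes by -0.15 between E21 and PND 22 in brain, and took the share of calls that were lower from 50.4% to 38.0% at the last colon step. Signals near the detection limit, those of Add2 and Sox11 in colon and of Dpysl3 and Tubb3 at colon PND 22, understate a decline. Dpysl3 at brain PND 22, and Tubb2b, Sox4 and Crmp1 at colon PND 22, lay not far above that limit, and their declines may be understated too. The single dam at E21 limits every comparison with that age.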
